A study of Mus musculus with 9 samples.

Results

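Red blood cell transcripts in brown adipose tissue (BAT), the heat-producing fat of the mouse, were examined through 6 genes taken by gene symbol from the deposited tables: the alpha globins Hba-a1 and Hba-a2, the beta globins Hbb-bs and Hbb-bt, Alas2 and Slc4a1. All 6 were listed in each of the 3 tables, among 16937 genes listed in any of them. The 9 mice whose BAT was sequenced fell into 3 groups of 3. WT RT mice were wild type and stayed at 23 °C, WT Cold mice were wild type and spent 8 h at 4 °C, and GCN2 KO Cold mice spent the same 8 h at 4 °C and lacked Gcn2 in the whole body. All mice were 12 to 23 wk old, on the C57Bl/6J background, and had been housed singly for 5 days beforehand. The study used both sexes, and the labels used here do not give the sex of a library. Mice were killed by decapitation, and no rinsing of blood from the tissue is described in the sources used here, so the levels were read library by library. The columns carry library codes and no mouse numbers, so within each group the libraries were lettered A to C by their codes.

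Hemoglobin, the oxygen carrier of red blood cells, is built from alpha and beta globin chains that each hold a heme. Mature red blood cells of mammals have no nucleus, and the youngest circulating ones, the reticulocytes, still carry globin mRNA from their precursors. Alas2 encodes the erythroid form of the enzyme that starts heme synthesis, whereas Alas1 encodes the form used by other cells. Slc4a1 encodes the anion exchanger of the red cell membrane. BAT is densely supplied with blood vessels, and none of these genes defines a brown adipocyte. In RNA from whole tissue, more red blood cells and more of these transcripts per cell cannot be told apart.

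The globin genes lie in pairs. On GRCm38, Hba-a1 (ENSMUSG00000069919) lies on the plus strand at chr11:32283511-32284465 and Hba-a2 (ENSMUSG00000069917) at chr11:32296489-32297298. Hbb-bs (ENSMUSG00000052305) lies on the minus strand at chr7:103826534-103828096 and Hbb-bt (ENSMUSG00000073940) at chr7:103812524-103813996. Alas2 (ENSMUSG00000025270) lies on the plus strand at chrX:150547375-150570638, and Slc4a1 (ENSMUSG00000006574) on the minus strand at chr11:102348824-102366203. Reads were counted over exons. The coding sequences of Hba-a1 and Hba-a2, 429 bases long, differed at 1 base, with an identical run of 380 bases. Those of Hbb-bs and Hbb-bt, 444 bases long, also differed at 1 base, with an identical run of 416 bases. Only reads that matched a single place were counted, so the division of reads within each pair is uncertain. Reads that matched both members of a pair were not counted for either, and the number lost in this way was not measured, so the sum of a pair holds only the reads that were kept.

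The promoters are shown to describe the genes, and no link between them and the levels in the libraries was tested. Each is the 250 bases before the transcription start given by RefSeq on GRCm38.p6, read 5′ to 3′ on the strand of the gene. Of the 6 genes, 5 had an entry in that table. Capitals mark GATAAG, a site for GATA factors, CACCC, the box bound by the Klf1 family, CCAAT and TATAA, searched on both strands, so a match on the opposite strand appears as its reverse complement. Adjoining and overlapping matches form a single run of capitals. The windows are chr11:32283422-32283671 for Hba-a1, chr11:32296242-32296491 for Hba-a2, chr7:103827929-103828178 for Hbb-bs, chr7:103813924-103814173 for Hbb-bt and chrX:150547167-150547416 for Alas2.
Hba-a1: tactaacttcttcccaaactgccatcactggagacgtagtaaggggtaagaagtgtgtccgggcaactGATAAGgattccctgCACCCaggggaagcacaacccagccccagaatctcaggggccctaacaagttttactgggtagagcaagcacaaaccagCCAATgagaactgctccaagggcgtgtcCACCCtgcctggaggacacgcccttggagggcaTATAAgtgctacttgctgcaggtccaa
Hba-a2: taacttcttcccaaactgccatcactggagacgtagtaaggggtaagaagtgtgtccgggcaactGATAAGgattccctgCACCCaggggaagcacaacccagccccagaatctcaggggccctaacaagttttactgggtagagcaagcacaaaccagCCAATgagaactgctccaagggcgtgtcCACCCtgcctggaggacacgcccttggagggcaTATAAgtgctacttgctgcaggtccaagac
Hbb-bs: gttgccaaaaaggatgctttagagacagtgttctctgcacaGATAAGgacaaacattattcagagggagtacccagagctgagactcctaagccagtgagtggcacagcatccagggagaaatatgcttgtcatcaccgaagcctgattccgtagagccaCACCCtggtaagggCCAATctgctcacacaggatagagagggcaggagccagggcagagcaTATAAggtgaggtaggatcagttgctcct
Hbb-bt: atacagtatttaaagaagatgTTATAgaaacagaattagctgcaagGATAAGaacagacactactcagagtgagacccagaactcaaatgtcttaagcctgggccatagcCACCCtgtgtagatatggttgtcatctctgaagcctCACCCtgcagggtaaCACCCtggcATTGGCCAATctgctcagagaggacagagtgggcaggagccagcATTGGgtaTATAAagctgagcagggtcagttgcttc
Alas2: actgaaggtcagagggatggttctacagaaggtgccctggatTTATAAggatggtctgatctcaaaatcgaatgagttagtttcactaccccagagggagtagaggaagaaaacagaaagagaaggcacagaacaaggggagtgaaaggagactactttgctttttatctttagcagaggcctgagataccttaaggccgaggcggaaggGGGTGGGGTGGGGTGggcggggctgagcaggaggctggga

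All 4 globin promoters held each of the 4 motifs on the gene's own strand. Among 32851 RefSeq promoters of the same length, 6.55% held GATAAG, 52.0% CACCC, 33.8% CCAAT and 22.8% TATAA, and 95 promoters, or 0.289%, held all 4. The motifs were chosen from textbook knowledge of globin genes after the sequences had been seen, so these shares are a description. The TATAA match began 27 bases before the start in Hba-a1, 30 in Hba-a2, 29 in Hbb-bs and 28 in Hbb-bt, and the CCAAT match on the gene's strand began 88, 91, 76 and 75 bases before it. The Hba-a1 and Hba-a2 windows were identical over all 247 bases that they share once shifted by 3 bases. The Hbb-bs and Hbb-bt windows, aligned without gaps, matched at 127 of 249 bases. The Alas2 window had 3 CACCC matches on the opposite strand, which read GGGTG on its own strand, from 30 to 40 bases before the start, and a TATAA match 207 bases before it. GATAAG and CCAAT were not found in these 250 bases of Alas2, and other forms of a GATA site were not searched.

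Before the comparisons, the groups were checked. Sequencing depth was even, from 27058799 to 30768064 reads on listed genes. Eif2ak4, which encodes GCN2, was not lower in libraries labelled GCN2 KO Cold. It had 11.9, 12.7 and 11.8 CPM (reads per 1000000 reads on the listed genes) in libraries A, B and C there, 6.46, 8.31 and 8.34 in WT Cold and 11.1, 12.6 and 13.0 in WT RT. Counts over all exons do not show which exons were read, and the group is therefore called by its label. The library codes of WT RT begin with other letters than those of both cold groups. What the letters stand for is not given in the sources used here, and whatever they mark cannot be told apart from cold. The brown adipocyte markers were present in every group, with summed levels of 12 genes between 21703 and 34452 CPM.

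The beta globin Hbb-bs was the most abundant of the 6 transcripts. It had 171.0, 133.3 and 169.1 CPM in WT RT libraries A, B and C, 357.9, 1208 and 296.4 CPM in WT Cold libraries A, B and C, and 1136, 644.8 and 575.3 CPM in GCN2 KO Cold libraries A, B and C. Every cold library lay above every WT RT library, and WT Cold library B lay above all others. The means were 157.8 ± 21.2, 620.6 ± 509 and 785.3 ± 306 CPM (SD, n = 3) in WT RT, WT Cold and libraries labelled GCN2 KO Cold. The spread within WT Cold, from library C to library B, was 4.07-fold, against 1.28-fold within WT RT.

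Hbb-bt, the other adult beta globin of this strain, had 29.0, 22.1 and 27.7 CPM in WT RT, 54.4, 193.1 and 53.7 CPM in WT Cold and 179.2, 103.9 and 90.8 CPM in libraries labelled GCN2 KO Cold, each in the order A, B, C. The highest library was again WT Cold B, and the lowest was WT RT B. The highest level was 8.73 times the lowest for Hbb-bt and 9.06 times for Hbb-bs.

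The alpha globin Hba-a1 had 96.1, 73.0 and 89.6 CPM in WT RT, 177.9, 599.1 and 150.0 CPM in WT Cold and 525.2, 321.9 and 296.9 CPM in libraries labelled GCN2 KO Cold. Hba-a2 had 37.9, 24.7 and 35.1 CPM in WT RT, 61.3, 225.4 and 57.1 CPM in WT Cold and 196.9, 114.0 and 105.2 CPM in libraries labelled GCN2 KO Cold. For both alpha globins the cold libraries did not overlap with the WT RT libraries, and the cold groups overlapped with each other.

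Alas2, which supplies heme for hemoglobin, had 10.7, 7.18 and 9.39 CPM in WT RT, 19.1, 53.7 and 14.8 CPM in WT Cold and 43.8, 26.7 and 15.9 CPM in libraries labelled GCN2 KO Cold. Its means in WT Cold and in libraries labelled GCN2 KO Cold were close, at 29.2 ± 21.3 and 28.8 ± 14.1 CPM (SD, n = 3). Slc4a1 was near the limit of detection. It had 9, 1 and 8 reads in WT RT, 11, 50 and 9 reads in WT Cold and 39, 22 and 15 reads in libraries labelled GCN2 KO Cold. The single read of WT RT library B has an exact 95% Poisson interval of 0.0253 to 5.57 reads, which covers counting error only.

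**Figure D1:**
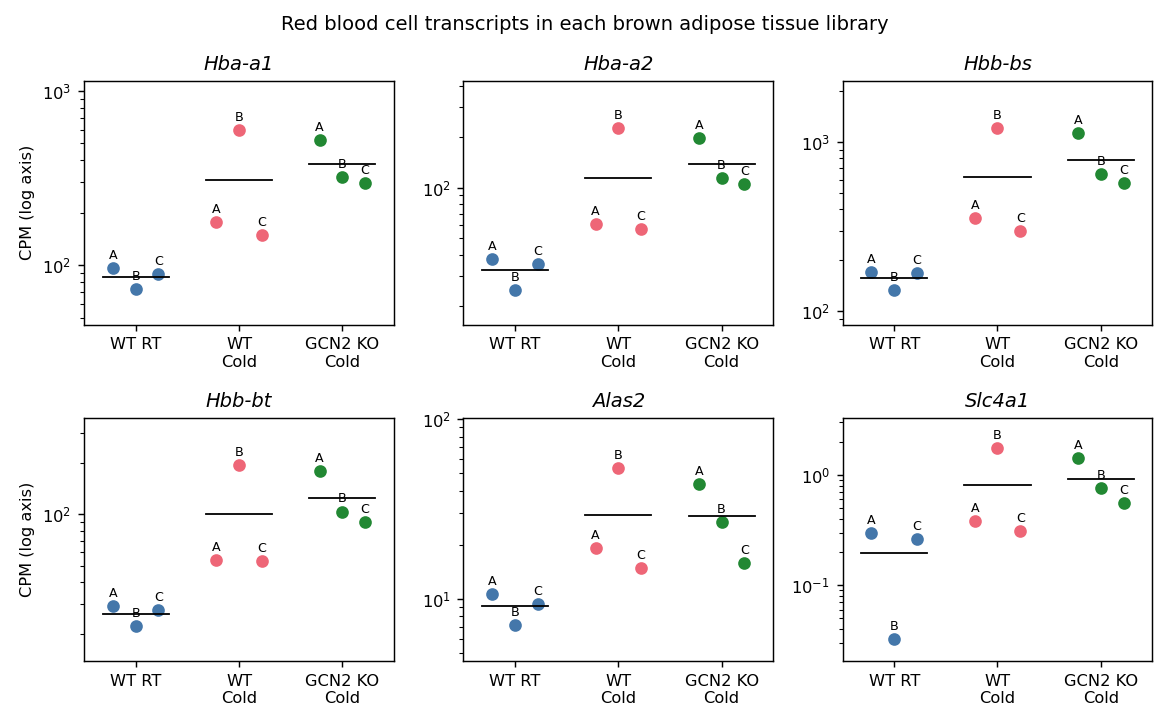
CPM of each red blood cell transcript (log axes, a separate scale per gene) in the 9 libraries, with points lettered by library and a horizontal line at the group mean (n = 3). For Hbb-bs the 3 WT RT libraries sit between 133.3 and 171.0 CPM, below all 6 cold libraries, and WT Cold library B is the highest in every panel.

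The order of the 9 libraries from high to low was WT Cold B, GCN2 KO Cold A, GCN2 KO Cold B, GCN2 KO Cold C, WT Cold A, WT Cold C, WT RT A, WT RT C and WT RT B for 5 of the 6 genes. Alas2 kept this order except that WT Cold A lay above GCN2 KO Cold C. The WT Cold group held both the highest of the 9 libraries and the lowest pair of the cold ones, for these 5 genes, so its levels and those of libraries labelled GCN2 KO Cold are not ordered beyond their spread. Over the 9 libraries, Pearson's r of log2(CPM + 1) was between 0.996 and 0.999 for the 6 pairs of globins, between 0.960 and 0.964 for the globins with Alas2 and between 0.946 and 0.963 for the globins with Slc4a1. With the group means subtracted, the same ranges were 0.992 to 0.998, 0.950 to 0.961 and 0.986 to 0.994. These coefficients describe libraries that fall into groups, the globin pairs share near-identical sequence, and no test was made of them.

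Levels can be compared between genes only per length. In CPM per kilobase of exon, with lengths from GENCODE M21 on GRCm38, the order Hbb-bs, Hba-a1, Hba-a2, Hbb-bt, Alas2, Slc4a1 held in 9 of 9 libraries. The WT RT means were 205.4 for Hbb-bs, 106.2 for Hba-a1, 48.8 for Hba-a2, 37.4 for Hbb-bt, 3.78 for Alas2 and 0.0402 CPM per kilobase for Slc4a1. The position of the globins in this order rests on the reads kept for each, and the number lost to the near-identical partner was not measured. Together the 6 transcripts took 0.0260 to 0.0345% of the reads in WT RT, 0.0572 to 0.228% in WT Cold and 0.108 to 0.208% in libraries labelled GCN2 KO Cold. The share of reads on mitochondrially encoded genes also differed between the groups, at 17.9 to 18.5% in WT RT, 19.9 to 21.9% in WT Cold and 22.7 to 24.4% in libraries labelled GCN2 KO Cold. With those genes left out of the total, the 6 transcripts took 0.0317 to 0.0422% of the reads in WT RT, 0.0733 to 0.290% in WT Cold and 0.140 to 0.275% in libraries labelled GCN2 KO Cold.

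Acute cold in wild-type mice was examined by setting WT Cold against WT RT. All 4 globins and Alas2 were higher in WT Cold, by about the same factor. Calls needed a limma adjusted p below 0.05 together with a log2 fold change beyond 1 in size, fitted on log2(normalized count + 1), where a normalized count is the read count divided by the size factor of the authors' table. This scale understates the change of low genes. Of the 6 transcripts, 5 were called higher, against 2.99% of all 16679 genes of the table, and all 6 had every WT Cold library above every WT RT library, which held for 22.8% of all genes. The median log2 fold change of the 6 was 1.69 and that of all genes 0.00.

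Hbb-bs had 18829 ± 15407 normalized counts in WT Cold and 4537 ± 720 in WT RT (SD, n = 3), a log2 fold change of 1.77 (95% interval 0.69 to 2.85, limma adjusted p = 0.0264), or 3.41-fold. Hbb-bt had a log2 fold change of 1.75 (limma adjusted p = 0.0251), Hba-a1 of 1.64 (limma adjusted p = 0.0336) and Hba-a2 of 1.61 (limma adjusted p = 0.0426). Across the 4 globins the standard errors lay between 0.45 and 0.49. Alas2 rose by a like amount, with a log2 fold change of 1.55 (standard error 0.43, limma adjusted p = 0.0329). Slc4a1 had the largest log2 fold change, 1.83, with a standard error of 0.84, and did not pass (limma adjusted p = 0.141). With edgeR on the recovered reads, which called 3.03% of all genes higher, and with DESeq2, which called 3.26%, the count was 5 of 6 as well. It was 0 of 6 with limma without the mean-variance trend (adjusted p from 0.0653 to 0.185) and 4 of 6 with limma scaled by library totals.

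The calls in WT Cold rested on few libraries. Without WT Cold library B the log2 fold changes of the 5 called genes fell to between 0.97 and 1.14 with limma adjusted p from 0.0062 to 0.0251, and 3 of 6 were called, since Hba-a2 and Alas2 dropped just under the fold threshold. Without any single WT RT library, 0 of the 6 were called, with log2 fold changes of the 5 genes between 1.37 and 1.86 and limma adjusted p between 0.0603 and 0.129.

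**Figure D2:**
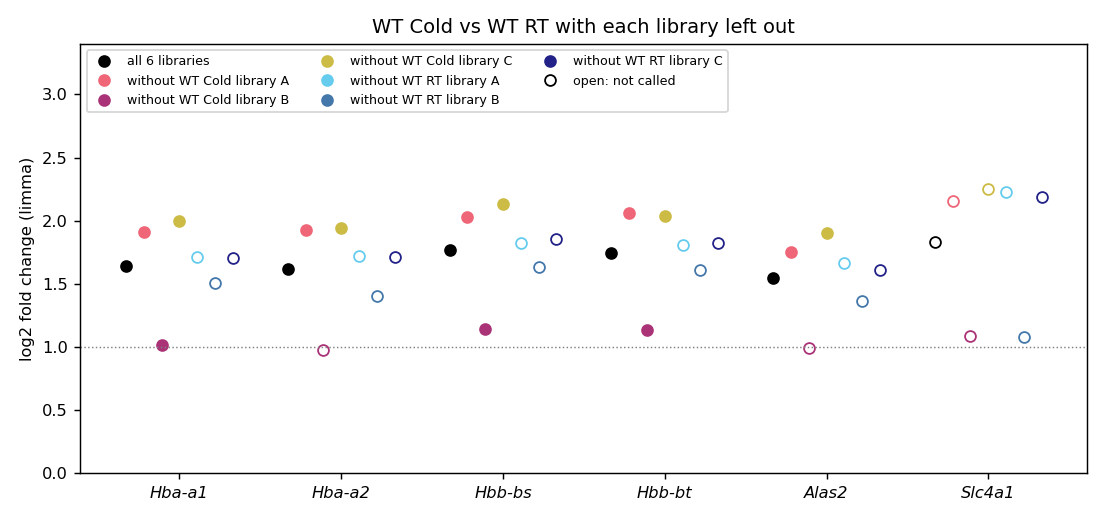
Log2 fold change of each transcript in WT Cold vs WT RT from limma (y axis) with all 6 libraries and with each library left out in turn, where open points were not called and the dotted line marks a log2 fold change of 1. Every value is above 0, the values without WT Cold library B are the lowest for 4 globins and Alas2, and the points without a WT RT library are open.

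In libraries labelled GCN2 KO Cold set against WT RT, genotype and temperature both differed. All 6 transcripts were called higher, against 3.01% of all 16560 genes, and for all 6 every library labelled GCN2 KO Cold lay above every WT RT library, which held for 23.7% of genes. The median log2 fold change of the 6 was 2.35 and that of all genes 0.01. Hbb-bs had 24407 ± 9322 normalized counts in libraries labelled GCN2 KO Cold and 4277 ± 679 in WT RT (SD, n = 3), a log2 fold change of 2.46 (95% interval 1.92 to 3.0, limma adjusted p = 0.000317), or 5.50-fold. Hbb-bt had a log2 fold change of 2.39, Hba-a1 of 2.31 and Hba-a2 of 2.26, with limma adjusted p between 0.000235 and 0.000563 over the 4 globins. Their standard errors, 0.21 to 0.25, were smaller than in WT Cold against WT RT, where library B widened the spread.

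In libraries labelled GCN2 KO Cold, Alas2 differed less than the globins, with a log2 fold change of 1.76 (standard error 0.33, limma adjusted p = 0.00454). For Slc4a1 the log2 fold change was 2.40 (standard error 0.67, limma adjusted p = 0.0255). The call of Slc4a1 was lost without GCN2 KO Cold library A (limma adjusted p = 0.0764) or library B (limma adjusted p = 0.0544), whereas the other 5 genes were called with each library left out. The count was also 6 of 6 with edgeR, which called 2.9% of all genes higher, and with DESeq2, which called 3.07%. The WT RT libraries serve as the control in both comparisons against room temperature.

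The effect of genotype in the cold was examined with libraries labelled GCN2 KO Cold set against WT Cold. No difference between the genotypes was resolved for any of the 6 transcripts. With limma 0 of the 6 passed, against 0.0613% of all 16312 genes called higher, and 0 had an unadjusted p under 0.05, against 15.3% of genes. The count was 0 with edgeR, which called 0.0552% of genes higher, and 0 with DESeq2, which called 0.159%. For 0 of the 6 did every library labelled GCN2 KO Cold lie above every WT Cold library, which held for 11.3% of genes.

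The log2 fold changes were 0.67 for Hba-a1, 0.64 for Hba-a2, 0.69 for Hbb-bs, 0.64 for Hbb-bt, 0.21 for Alas2 and 0.58 for Slc4a1, with limma adjusted p between 0.585 and 0.884. The 95% interval of Hbb-bs ran from -0.51 to 1.89, so differences between 0.700-fold and 3.71-fold were not distinguished at this spread. Alas2 changed sign without GCN2 KO Cold library A or WT Cold library C, to log2 fold changes of -0.14 in each case. Without WT Cold library B the globin log2 fold changes were between 1.26 and 1.32, and they were not called, with limma adjusted p between 0.210 and 0.240. Mice of the GCN2 KO genotype at room temperature are not analysed here, so whether the effect of cold differed between genotypes was not tested.

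**Figure D3:**
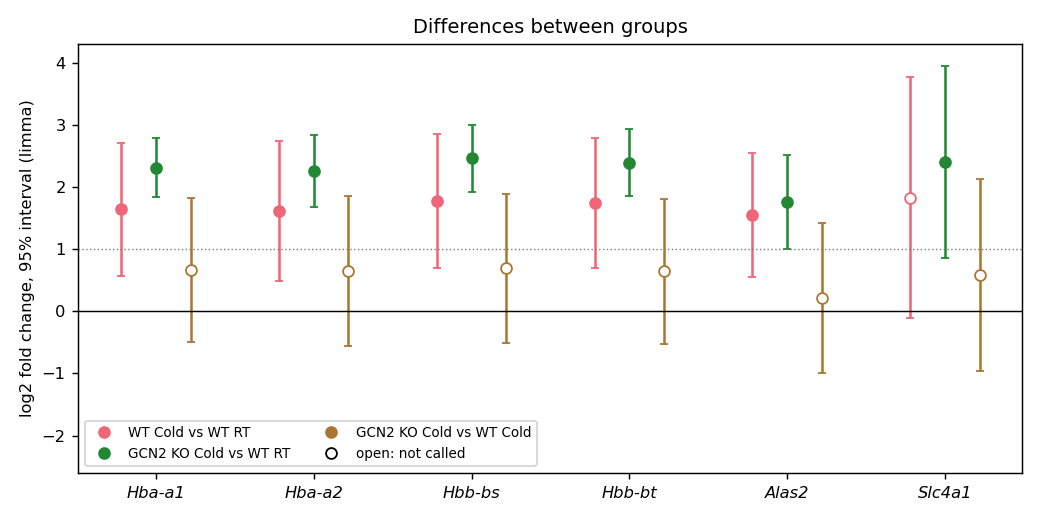
Log2 fold change with its 95% interval from limma (y axis) for each transcript in the 3 comparisons (colours), where open points were not called, the solid line marks 0 and the dotted line a log2 fold change of 1. For the globins the values against WT RT lie from 1.61 to 2.46 and the values of GCN2 KO Cold vs WT Cold from 0.64 to 0.69, with intervals that include 0.

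The balance of alpha to beta globin was then taken within each library, where the summed globin level cancels, over the reads that were kept for each pair. WT RT libraries A, B and C had 0.670, 0.629 and 0.634 alpha reads per beta read. The ratio was 0.580, 0.589 and 0.592 in WT Cold and 0.549, 0.582 and 0.604 in libraries labelled GCN2 KO Cold. All 6 cold libraries were below all 3 WT RT libraries. The means were 0.644 ± 0.022, 0.587 ± 0.0061 and 0.578 ± 0.028 (SD, n = 3), and an exact two-sided permutation test gave p = 0.1 for each cold group against WT RT, the smallest p that 3 libraries against 3 can give. Within the pairs, Hba-a1 took 71.7 to 74.8% of the alpha reads and Hbb-bs 84.7 to 86.8% of the beta reads over the 9 libraries.

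The level of Alas2 was taken relative to the globins in the same way. Per 1000 globin reads, Alas2 had 32.0, 28.4 and 29.2 reads in WT RT, 29.4, 24.1 and 26.5 in WT Cold and 21.5, 22.5 and 14.9 in libraries labelled GCN2 KO Cold. Libraries labelled GCN2 KO Cold were below the other 6, and the WT Cold and WT RT libraries overlapped. The means were 29.9 ± 1.93, 26.7 ± 2.63 and 19.6 ± 4.13 (SD, n = 3). The exact two-sided permutation p was 0.1 for libraries labelled GCN2 KO Cold set against either other group and 0.3 for WT Cold against WT RT. Over the 6 tests of both ratios, the Benjamini-Hochberg adjusted p was 0.15 where the raw p was 0.1, and this exact test cannot give a p under 0.1 with 3 libraries against 3.

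**Figure D4:**
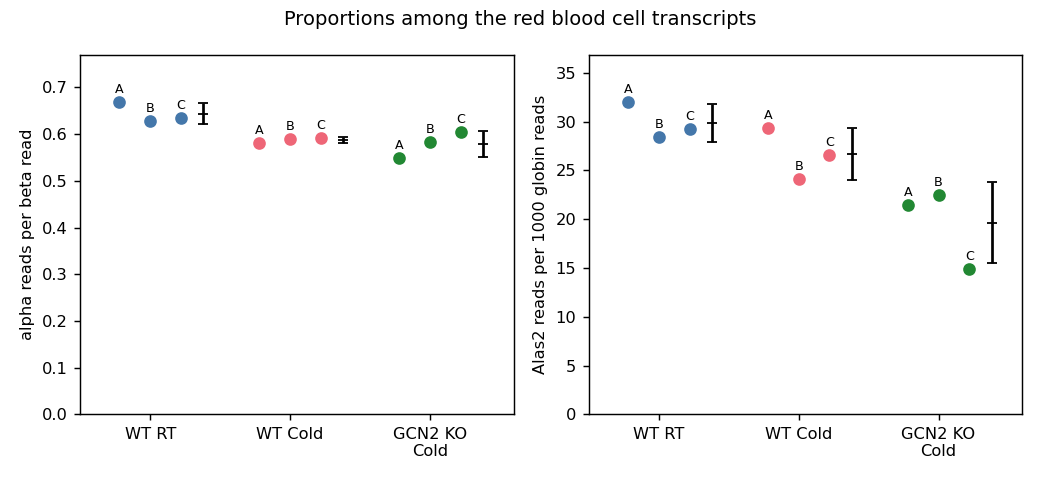
Alpha globin reads per beta globin read (left, y axis) and Alas2 reads per 1000 globin reads (right, y axis) in each of the 9 libraries, lettered by library, with the group mean and SD in black (n = 3). The cold libraries reach at most 0.604 alpha reads per beta read, below the lowest WT RT library at 0.629, and libraries labelled GCN2 KO Cold reach at most 22.5 Alas2 reads per 1000 globin reads.

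The enzymes of heme synthesis examined here are encoded by Alas1, Alas2, Alad, Uros, Urod, Cpox, Ppox and Fech. All 8 were tested, and Alas2 was the 1 called in either comparison against WT RT. Of the other 7, 0 were called by limma, edgeR or DESeq2 in any comparison. In each of the 3 comparisons 4 of them had an unadjusted limma p under 0.05, though not the same 4 each time. Among all genes tested, the share with such a p was 40.9% in WT Cold and 44.4% in libraries labelled GCN2 KO Cold, both against WT RT, and 15.3% between the cold groups. Against WT RT their log2 fold changes were smaller in size than that of Alas2 and went both ways, and between the cold groups they ran from 0.03 to 0.33, with 0.21 for Alas2. In WT Cold against WT RT, Alad had a log2 fold change of -0.62 (limma adjusted p = 0.00113), Urod of -0.39, Ppox of -0.45, Cpox of -0.38 and Fech, which inserts the iron, of -0.24. Uros had a log2 fold change of 0.12. Alas1 had 0.24 (limma adjusted p = 0.161) in WT Cold and 0.33 (limma adjusted p = 0.125) in libraries labelled GCN2 KO Cold, both against WT RT. In the latter comparison Uros had 0.35, Alad -0.40, Cpox -0.34, Ppox -0.34, Urod -0.05 and Fech -0.02. Alas2 reached 0.0435 to 0.0602 reads per Alas1 read in WT RT, 0.0818 to 0.243 in WT Cold and 0.104 to 0.237 in libraries labelled GCN2 KO Cold. Summed over the 7 other enzymes, levels were 455.4 to 498.6 CPM in WT RT, 402.4 to 446.9 in WT Cold and 393.5 to 486.0 in libraries labelled GCN2 KO Cold.

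**Figure D5:**
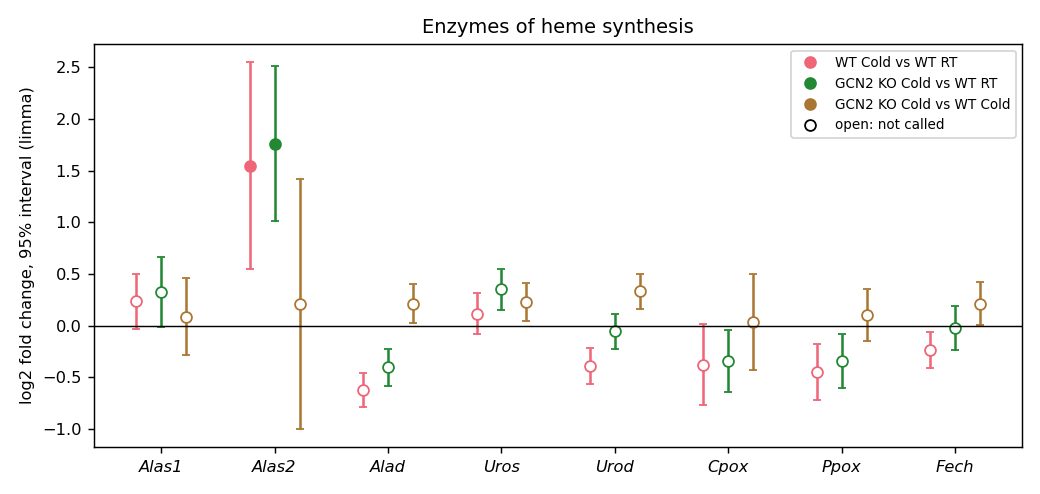
Log2 fold change with its 95% interval from limma (y axis) for 8 enzymes of heme synthesis in the 3 comparisons (colours), where open points were not called. Alas2 stands at 1.55 and 1.76 against WT RT, while the other 7 lie between -0.62 and 0.35 in those comparisons.

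Of the wider globin family, 7 of 13 listed members were tested, the 4 members and Mb, Cygb and Ngb, which bind heme in other cells. In neither comparison against WT RT were Mb, Cygb or Ngb called by limma, edgeR or DESeq2, and 1 of the 3 had an unadjusted limma p under 0.05 in WT Cold and 2 in libraries labelled GCN2 KO Cold. Mb, the myoglobin of muscle, had 128, 106 and 103 CPM in WT RT, 185, 171 and 98.8 CPM in WT Cold and 61.0, 49.2 and 52.0 CPM in libraries labelled GCN2 KO Cold. These last 3 libraries were below all others, a log2 fold change of -0.85 against WT RT (limma adjusted p = 0.000929) and of -1.33 against WT Cold (limma adjusted p = 0.0616, called by DESeq2 and not by edgeR). All 14 skeletal muscle genes showed the same order, with every library labelled GCN2 KO Cold below every WT Cold and every WT RT library. Of all genes, 10.7% had every library labelled GCN2 KO Cold below every WT Cold library, and 25.5% had every one below every WT RT library. Of these 14, 12 were called lower against WT RT, where 7.58% of all genes were, and Myh7, a slow muscle myosin, was called lower against WT Cold (log2 fold change -3.34, limma adjusted p = 0.0483), where 0.196% of genes were. With edgeR and DESeq2, 6 and 6 of the 14 were called against WT RT, and 0 and 3 against WT Cold. Their summed level was 2779 to 3377 CPM in WT RT, 2616 to 4362 in WT Cold and 324.1 to 1519 in libraries labelled GCN2 KO Cold, and its part in the values of Mb was not tested. Cygb had log2 fold changes of -0.03, -0.28 and -0.25 and Ngb of 1.22, 0.90 and -0.32 in WT Cold vs WT RT, then in GCN2 KO Cold vs WT RT and lastly in GCN2 KO Cold vs WT Cold, and neither was called. Ngb was near the limit of detection, at 0.164 to 0.834 CPM.

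Among 31 genes of the red cell membrane and its enzymes, 19 were tested in WT Cold against WT RT. Slc4a1 was not called, Ube2l6, a gene of the ubiquitin pathway, was called lower (log2 fold change -1.08, limma adjusted p = 0.0276), where 5.15% of all genes were called lower, and the median log2 fold change of the 18 apart from Slc4a1 was 0.27. Of these 18, 8 had every WT Cold library above every WT RT library, against 22.8% of all genes. Their log2 fold changes ran from -1.08 to 1.21. In libraries labelled GCN2 KO Cold set against WT RT, Slc4a1 was called higher, and the median of the other 18 was 0.11. Of these 18, 7 had every library labelled GCN2 KO Cold above every WT RT library, against 23.7% of all genes, and 5 had every one below, against 25.5%, with log2 fold changes from -1.51 to 0.69. Tmod1, Ank1 and Slc14a1 were called lower in this comparison, where 7.58% of all genes were, with log2 fold changes of -1.43, -1.07 and -1.51. Besides Slc4a1, edgeR called 4 genes and DESeq2 2 there, and each called 1 in WT Cold against WT RT. Between the cold groups 18 genes apart from Slc4a1 were tested, not all the same as against WT RT, and some were near the limit of detection. Their log2 fold changes ran from -1.64 to 1.83. Of these, limma and edgeR called 0 and DESeq2 3, and 6 had an unadjusted limma p under 0.05, against 15.3% of all genes. Tmod1 caps actin filaments and Ank1 anchors the membrane skeleton, both also in muscle, and Slc14a1 carries urea. Slc14a1 was near the limit of detection, at 0.492 to 0.813 CPM in WT RT and 0.145 to 0.209 in libraries labelled GCN2 KO Cold. Bpgm, which makes the metabolite that lowers the oxygen affinity of hemoglobin, had 24.6 to 32.2 CPM in WT RT, 32.6 to 64.3 in WT Cold and 28.6 to 42.6 in libraries labelled GCN2 KO Cold, and was not called. Rhag, Ahsp, Hemgn and Epb42 were among the listed genes not analysed here.

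Of a list of 9 genes for erythroid transcription factors and the erythropoietin receptor, 6 were tested against WT RT. Epor, the receptor gene, was the 1 called, lower in WT Cold (log2 fold change -1.01, limma adjusted p = 0.0189), where 5.15% of all genes were called lower, and edgeR and DESeq2 also called 1 of the 6. It had 2.86 to 3.74 CPM in WT RT and 1.17 to 1.74 CPM in WT Cold. In libraries labelled GCN2 KO Cold its log2 fold change against WT RT was -0.79 (limma adjusted p = 0.0375). Summed over the 6 genes, levels were 29.9 to 34.6 CPM in WT RT, 24.98 to 25.33 in WT Cold and 20.6 to 23.1 in libraries labelled GCN2 KO Cold. Gata1 and Klf1 were not analysed here.

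Genes that handle released hemoglobin, heme and iron were tested as a list of 19. Their median log2 fold change was -0.03 in WT Cold and -0.09 in libraries labelled GCN2 KO Cold set against WT RT. In WT Cold 2 were called higher and 1 lower, against 2.99% and 5.15% of all genes, and in libraries labelled GCN2 KO Cold 1 higher and 1 lower, against 3.01% and 7.58%. Hmox1, the enzyme that degrades heme, was called higher in WT Cold (log2 fold change 1.08, limma adjusted p = 0.00485), with 33.5, 58.7 and 43.0 CPM in WT RT and 89.0, 95.1 and 79.3 CPM in WT Cold. Tfrc, the transferrin receptor that takes up iron, was called higher in both cold groups, with log2 fold changes of 1.07 and 1.38 against WT RT. Slc11a1, a metal transporter of phagocytes, was called lower in both, with -1.11 and -1.47. In libraries labelled GCN2 KO Cold, Hmox1 had 70.7, 65.7 and 48.7 CPM, a log2 fold change of 0.68 (limma adjusted p = 0.035) that did not reach the fold threshold.

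Markers of the other cells of blood and of the vessel wall were set beside the red blood cell transcripts. Platelet genes went both ways. Ppbp, a chemokine of platelet granules, had 0.919, 0.683 and 1.05 CPM in WT RT, 1.04, 5.00 and 1.70 CPM in WT Cold and 3.69, 1.88 and 1.07 CPM in libraries labelled GCN2 KO Cold, with log2 fold changes against WT RT of 1.30 in WT Cold (limma adjusted p = 0.113) and 1.33 in libraries labelled GCN2 KO Cold (limma adjusted p = 0.0475). It was called in the second of these comparisons, where 3.01% of all genes were called higher. Pf4, another platelet chemokine that macrophages also make, was called lower in the same comparison (log2 fold change -1.36, limma adjusted p = 0.000481), where 7.58% of all genes were. Of the 5 platelet genes tested, limma and edgeR called 0 and DESeq2 1 in WT Cold against WT RT, with 2 at an unadjusted limma p under 0.05, and all 3 tools called 2 in libraries labelled GCN2 KO Cold set against WT RT. The 5 platelet genes with a value in all 9 libraries summed to 20.7 to 25.4 CPM in WT RT, 13.6 to 22.0 in WT Cold and 10.6 to 13.7 in libraries labelled GCN2 KO Cold. Pf4 alone had 14.6 to 21.4 CPM in WT RT, 6.71 to 16.3 in WT Cold and 5.75 to 6.43 in libraries labelled GCN2 KO Cold. It made up a large part of these sums, so they do not show how the other platelet genes moved.

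Of the neutrophil genes, 10 were tested in WT Cold and 8 in libraries labelled GCN2 KO Cold, both against WT RT. Mmp9, a protease, and Csf3r, a cytokine receptor, were called lower in both by limma, where 5.15% and 7.58% of all genes were. With edgeR and DESeq2, 2 were also called in each. The median log2 fold change of the list was 0.54 in WT Cold and -0.13 in libraries labelled GCN2 KO Cold. The summed level of the 9 neutrophil genes with a value in all 9 libraries was 14.6 to 28.6 CPM in WT RT, 17.0 to 24.7 in WT Cold and 12.9 to 20.5 in libraries labelled GCN2 KO Cold. Of 10 monocyte and macrophage genes, 5 were called lower in WT Cold and 9 in libraries labelled GCN2 KO Cold, both against WT RT, where 5.15% and 7.58% of all genes were. Cd14, the gene not called in either comparison, had log2 fold changes of 0.37 and -0.06. Examples were Ly6c2 (log2 fold changes -4.53 and -3.93), Fcgr1 (-3.98 and -3.95), Ccr2 (-2.87 and -3.11) and Cd68 (-1.96 and -2.78). Their summed level was 354.4 to 656.8 CPM in WT RT, 157.3 to 239.4 in WT Cold and 115.7 to 180.5 in libraries labelled GCN2 KO Cold.

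Of 11 lymphocyte genes tested, limma called 1 in WT Cold against WT RT and edgeR and DESeq2 called 2 each. The limma call was Nkg7, lower in WT Cold (log2 fold change -1.54, limma adjusted p = 0.0275), where 5.15% of all genes were called lower. Its level was low, at 0.591 to 1.37 CPM in WT RT and 0.207 to 0.313 in WT Cold. Against WT RT, 0 of 12 were called by any of the 3 tools in libraries labelled GCN2 KO Cold, with 1 at an unadjusted limma p under 0.05. The sums of the 11 genes with a value in all 9 libraries were 11.8 to 18.4 CPM in WT RT, 8.34 to 10.7 in WT Cold and 9.72 to 13.3 in libraries labelled GCN2 KO Cold. Of 10 endothelial genes, 0 were called by limma, edgeR or DESeq2 in any comparison, and 6 had an unadjusted limma p under 0.05 in WT Cold and 7 in libraries labelled GCN2 KO Cold, both against WT RT, where 40.9% and 44.4% of all genes had one. Endothelial sums were 712.5 to 770.7 CPM in WT RT, 812.4 to 982.2 in WT Cold and 679.3 to 819.7 in libraries labelled GCN2 KO Cold, a range far narrower than that of the globins. Brown adipocytes are the main cells of this tissue, and their genes held 4 of 12 called higher in both cold groups against WT RT, where 2.99% and 3.01% of all genes were. These were Dio2 (log2 fold changes 3.63 and 3.77), Ppargc1a (2.70 and 2.77), Elovl3 (1.17 and 1.89) and the uncoupling protein gene Ucp1 (1.02 and 1.30). The part of these cell contents in the values of the red blood cell transcripts was not tested.

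Genes with the pattern most like the globins were sought among 14036 genes with a mean of at least 1 CPM, by Pearson's r of log2(CPM + 1) with the mean of the 4 globins over 9 libraries. Apart from Alas2, whose r was 0.963, those with the highest r reported here were Mrps18a (0.953), Kctd1 (0.942), Gm11808 (0.940) and Mrpl12 (0.934). Their ranges differed from that of the globins. Mrps18a, a protein of the mitochondrial ribosome, ran from 71.0 to 102.4 CPM, whereas Hbb-bs ran from 133.3 to 1208 CPM. When deviations from the group means were used in place of levels, they were Gm10516 (0.940), Nnmt (0.937), Lppos (0.929) and Ppbp (0.929), none of which was in the first set. Over the levels, r was negative for Gm10516 (-0.398) and Lppos (-0.437). Both were lower in every cold library than in every WT RT library, opposite to the globins. The deviations used the same 9 libraries, in which WT Cold library B carries much of the range.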

How the data were processed

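BAT RNA from 9 mice was sequenced as poly(A)-selected, paired-end libraries. The authors trimmed reads with Trimmomatic (version 0.36), aligned them with STAR (version 2.5.2b) to the Ensembl mouse genome, counted unique exonic reads with featureCounts (Subread version 1.5.2) and compared groups with DESeq2. The submitters' processing notes name GRCm39. For each comparison the deposited table holds a signal per gene and library, reads over a size factor that the authors set for that table. It also holds the authors' log2 fold changes and p-values, which were not used. Groups of libraries follow from which tables list each code, and 0 columns came from other samples. The genotype field was followed for a GCN2 KO sample whose title also reads WT.

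Whole reads were recovered for 100% of values (tolerance 0.01), and 0 of 145860 values differed between tables. Totals of 27058799 to 30768064 reads leave counting error small beside the spread between mice, except for low genes such as Slc4a1, Ngb, Slc14a1 and Nkg7. Normalization was separate per table, and each test stayed within a table, with limma (version 3.58.1, R version 4.3.3), a mean-variance trend, a pseudocount of 1 and Benjamini-Hochberg adjustment over all 16679, 16560 or 16312 genes of the table. Levels across libraries are CPM of the recovered reads. edgeR (version 4.0.16) and DESeq2 (version 1.42.0) were run on these reads as alternatives. Other alternatives changed the scaling, pseudocount, filter, trend, samples in the fit, fold threshold and libraries. The scripts were tested on simulated data. Mice were housed singly before sampling, whether those of a group shared a litter is not given, and p-values measure the spread between these mice.

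The genes, the gene lists and the tests were chosen with earlier results of these data known. The text names the 6 genes, the other globins and heme enzymes, every erythroid transcription factor or Epor called, up to 4 called genes of each other list by size of change if normalized counts averaged 50 or more, and the genes among the 5 most like the globins. A few genes of these lists are not reported here, and counts of the lists leave them out. Slc14a1, Bpgm, Nkg7, Csf3r and Cd14 are outside these limits and were picked with their values in view. Gene positions and lengths are from GENCODE M21 on GRCm38, since no annotation of GRCm39 was used here, and promoters from RefSeq on GRCm38.p6.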

Additional observations from a re-analysis of the deposited data

How the results depend on the processing

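No paired analysis was possible because the library codes carry no replicate numbers. In WT Cold vs WT RT, without the mean-variance trend 0 of the 6 were called (limma adjusted p 0.0653 to 0.185), and with library totals the limma adjusted p of Hba-a2 was 0.0501 and 4 were called. With each library left out, the number called was 0 to 5, against 5 to 6 in GCN2 KO Cold vs WT RT and 0 each time in GCN2 KO Cold vs WT Cold. In the last comparison the log2 fold change of Alas2 ranged from -0.14 to 0.77, and its sign reversed without GCN2 KO Cold library A or WT Cold library C. The cause was not tested.

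The count of all genes called was 1357, 1754 and 42 in WT Cold vs WT RT, in GCN2 KO Cold vs WT RT and in GCN2 KO Cold vs WT Cold. It was 4624, 5657 and 66 without a fold threshold, which admits smaller changes by construction. In the last comparison it was 6 without the trend, 209 with DESeq2 and 179 with the 3 groups in one fit. With each library left out it was 1090 to 1854, 1424 to 1875 and 3 to 22. Library totals moved the median of all genes to -0.08, -0.19 and -0.12 on the log2 scale and the split in GCN2 KO Cold vs WT RT from 499 higher and 1255 lower to 326 and 1769, while the 6 transcripts stayed called there. Without mitochondrially encoded genes the mean share of reads on the 6 transcripts was 0.0382% in place of 0.0312% in WT RT, 0.149% in place of 0.117% in WT Cold and 0.191% in place of 0.146% in libraries labelled GCN2 KO Cold. Depth limits low genes such as Slc4a1, which had 1 to 50 reads.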
